A study of Arabidopsis thaliana with 36 samples.

Results

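A set of 10 genes of cellulose synthesis was followed through the leaf-like cotyledons and the hypocotyl of Arabidopsis thaliana seedlings during the first 180 min of simulated shade. They were taken by locus from the 33602 genes of the count table, by their known role and not by a cut on any measured value. Earlier results of these data were known when they were chosen. The set held the 5 cellulose synthase catalytic subunits of the primary wall (CESA1, CESA2, CESA3, CESA5 and CESA6), the 3 catalytic subunits of the secondary wall (CESA4, CESA7 and CESA8), the membrane-bound endoglucanase KORRIGAN1 (KOR1) and the cell-surface protein COBRA (COB). All 10 passed the filter on low counts and were among the 20126 genes tested.

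Cellulose is spun out at the plasma membrane by rosette-shaped complexes of CESA proteins that run along cortical microtubules. In growing cells the primary-wall complex holds CESA1, CESA3 and a position filled by CESA6 or its close relatives CESA2 and CESA5, while xylem cells that have stopped growing use CESA4, CESA7 and CESA8 to lay down a thick secondary wall. KOR1 is needed for normal movement and turnover of the complexes, and COB, held in the membrane by a lipid anchor, for oriented deposition of the microfibrils in elongating cells. Plants that sense a low ratio of red to far-red light (R/FR), the mark of leaves nearby, elongate their hypocotyls, so new wall is made in one organ while the other grows less.

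The groups were wild-type Columbia-0 (Col-0) seedlings with no transgene or mutation, 5 days old when the treatment began in the morning, raised in long days on half-strength Murashige and Skoog medium. Plates received low R/FR for 15, 45, 90 or 180 min, or stayed in high R/FR (white light) for 0, 15, 45, 90 or 180 min, and both organs were dissected after acetone fixation from about 50 seedlings a sample. That gave 18 groups of 2 libraries, 36 in all, and within an organ each library was 1 plate. Hypocotyl and cotyledon libraries of one light, time and number came from the same plate per the labels. The p-values measure the spread between plates, and whether the plates were separate sowings is not given in the sources used here. The main fits took all libraries as independent, and a block by plate was an alternative for comparisons between organs. Levels are CPM, the counts of a gene over a library total that TMM factors (trimmed means of log ratios) make comparable, and levels of different genes are compared only as CPM per kb of exon.

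Total counts ran from 23560273 to 34231167 in hypocotyl and from 24897594 to 45115165 in cotyledon libraries, of which the 10 genes took 0.256% to 0.595% in hypocotyl and 0.129% to 0.18% in cotyledon. The organ labels fitted the markers: 4 mesophyll genes summed to 13800 to 24300 CPM in hypocotyl and 66700 to 91900 CPM in cotyledon, and 5 root hair genes summed to at most 2.32 CPM in hypocotyl and at most 1.09 CPM in cotyledon. Of 4 shoot apex markers, KNAT1 and STM were present in hypocotyl libraries, where the sum was 152 to 417 CPM, against at most 0.68 CPM in cotyledon. The xylem markers XCP1, XCP2, TED6, TED7 and XSP1 summed to 129 to 228 CPM in hypocotyl and 70.8 to 123 CPM in cotyledon. In such whole-organ samples fewer cells of a type and less RNA per cell cannot be told apart.

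The promoters of CESA1, KOR1 and COB, called higher in low R/FR hypocotyls at 90 and 180 min, and of CESA4, called lower there at 180 min, are shown because they hold the motif matches described after them. They cover the 250 bases before the RefSeq start of the gene (build TAIR10.1), 5′ to 3′ on the gene's strand. Capitals mark matches, on either strand, to the searched motifs and to the overlapping words CACCGACAG and CCACCGACA, all described after the sequences. The words were found in the member promoters themselves. The CESA5 promoter, with 1 match to a searched motif, is not shown. CESA1 is at chr4:15646845-15647094, minus strand, KOR1 at chr5:20200469-20200718, minus strand, COB at chr5:24514339-24514588, minus strand, and CESA4 at chr5:17714140-17714389, plus strand.
CESA1: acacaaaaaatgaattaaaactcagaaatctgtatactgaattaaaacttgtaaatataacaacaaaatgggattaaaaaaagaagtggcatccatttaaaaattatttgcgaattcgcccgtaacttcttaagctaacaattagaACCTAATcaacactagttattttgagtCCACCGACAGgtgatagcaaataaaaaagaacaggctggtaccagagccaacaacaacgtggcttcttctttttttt
KOR1: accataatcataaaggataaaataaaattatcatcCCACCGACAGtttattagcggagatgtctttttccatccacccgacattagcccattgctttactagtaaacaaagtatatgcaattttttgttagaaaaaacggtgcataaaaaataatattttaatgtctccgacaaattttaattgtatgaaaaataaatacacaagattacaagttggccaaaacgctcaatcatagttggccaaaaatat
COB: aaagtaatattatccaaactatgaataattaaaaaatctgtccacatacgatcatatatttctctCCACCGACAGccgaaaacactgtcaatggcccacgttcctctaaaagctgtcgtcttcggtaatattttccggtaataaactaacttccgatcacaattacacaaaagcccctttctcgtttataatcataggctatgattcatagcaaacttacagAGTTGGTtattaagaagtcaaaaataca
CESA4: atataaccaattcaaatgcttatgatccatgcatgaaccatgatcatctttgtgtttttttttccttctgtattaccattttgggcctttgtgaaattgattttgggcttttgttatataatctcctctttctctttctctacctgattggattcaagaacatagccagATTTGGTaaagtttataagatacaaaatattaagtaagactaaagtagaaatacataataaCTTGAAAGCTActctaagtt

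Motifs of 5 families were searched on both strands in 27443 promoters of the same length. The G-box CACGTG, to which phytochrome-interacting factors bind, lay in 6.49% of all promoters and in 0 of the 10 members. The brassinosteroid-related motifs CGTGTG and CGTGCG lay in 5.37% and 1.57% of all promoters and also in 0 of 10 members. The tracheary element regulating element (TERE), known from genes of vessel cells, lay in 0.368% of all promoters and among the members in CESA4, 20 bases before its start. The 8 short words of the secondary wall MYB element lay in 29.4% of all promoters and in 4 members, CESA1, CESA4, CESA5 and COB, so they did not mark the secondary-wall genes. No match says only that these letters are not within the 250 bases.

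CESA1, KOR1 and COB held the same 9-letter word CACCGACAG, at 76, 214 and 184 bases before their starts. In all, 15 of 27443 promoters (0.0547%) held it. It was found by listing every word of 9 letters present in 3 or more members, which gave 6 words, after the values had been seen. Another of the 6, CCACCGACA, overlaps it and lay in the same 3 members and in 29 promoters (0.106%), and the other 4 words were made almost only of A and T and lay in 1.33% to 11.5% of promoters. In hypocotyl at 180 min 31.2% of all tested genes were called higher in low R/FR and 32.6% lower. Of the 12 other genes with CACCGACAG, 6 were called higher and 2 lower there, with a median log2 change of 0.24. They included CTL1, a chitinase-like protein needed for normal cellulose (log2 0.44 ± 0.08 SE), and the expansin gene EXPB3, which fell by 2.99 on the log2 scale. The match is a description of the letters.

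In hypocotyls the primary-wall genes, KOR1 and COB were all called higher in low R/FR at 90 and 180 min, and none of them at 15 or 45 min. At 180 min CESA1 and CESA3 stood at 2.78 and 2.91 times their high R/FR level. The difference between the 45 and 90 min responses was not tested. At 90 min all 7 of these genes were called higher in low R/FR and the 3 secondary-wall genes were not called, when 37.6% of all tested genes were called and 19.1% were called higher. At 180 min the 7 were called higher and the 3 secondary-wall genes lower, when 63.8% of all genes were called, 31.2% higher and 32.6% lower, so a call alone was common at that time. At 15 min 0 of 10 members were called by edgeR, with 0.179% of all genes called, and at 45 min 0 of 10, with 3.31% called. The number with an unadjusted p under 0.05 was also 0 at both times, DESeq2 and limma-voom called 0, and log2 changes ran from -0.09 to 0.17 at 15 min and from -0.03 to 0.32 at 45 min.

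CESA1, an obligatory subunit of the primary-wall complex (AT4G32410; TAIR10 chromosome 4, 15640620 to 15646665, minus strand), read 1212 and 1120 CPM in low R/FR hypocotyls at 180 min, against 434 and 406 CPM in high R/FR. At 90 min it read 565 and 544 CPM in low R/FR and 390 and 431 CPM in high R/FR, and at 45 min 415 and 381 CPM in low R/FR and 380 and 392 CPM in high R/FR. The light groups overlapped at 45 min and were apart at 90 and 180 min. The log2 change was 0.43 ± 0.1 (SE) at 90 min (adjusted p = 0.000489, edgeR quasi-likelihood test with Benjamini-Hochberg adjustment over all genes) and 1.47 ± 0.1 at 180 min, a fold of 2.78 (adjusted p = 7.63e-14).

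CESA3, the other obligatory subunit (AT5G05170; chromosome 5, 1530174 to 1535414, minus strand), read 627 and 583 CPM in low R/FR and 378 and 394 CPM in high R/FR at 90 min. At 180 min the readings were 1267 and 1133 CPM in low R/FR, against 408 and 416 CPM in high R/FR. Both low R/FR libraries at 180 min lay above every other hypocotyl library for CESA1 and CESA3. The log2 change of CESA3 was 0.65 ± 0.09 at 90 min (adjusted p = 7.16e-07) and 1.54 ± 0.09 at 180 min, a fold of 2.91 (adjusted p = 7.16e-15).

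CESA6, the main partner of CESA1 and CESA3 in the primary-wall complex (AT5G64740; chromosome 5, 25881066 to 25886694, plus strand), had a like response at 90 and 180 min. It read 690 and 667 CPM in low R/FR and 308 and 334 CPM in high R/FR at 90 min. At 180 min it read 686 and 633 CPM in low R/FR and 318 and 317 CPM in high R/FR. The log2 change was 1.08 ± 0.09 at 90 min (fold 2.11, adjusted p = 1.55e-11) and 1.06 ± 0.09 at 180 min (fold 2.08, adjusted p = 9.27e-12), the same within its error, while the changes of CESA1 and CESA3 were larger at 180 than at 90 min. The difference between those times was not tested.

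CESA2 and CESA5, the relatives that can take the place of CESA6, changed less. CESA2 (AT4G39350; chromosome 4, 18296797 to 18302192, plus strand) read 162.9 and 154.9 CPM in low R/FR and 91.86 and 96.41 CPM in high R/FR at 180 min, a log2 change of 0.76 ± 0.08 (fold 1.69, adjusted p = 5.4e-10), after 0.39 ± 0.07 at 90 min (adjusted p = 0.000111). CESA5 (AT5G09870; chromosome 5, 3073356 to 3078262, plus strand) read 175.8 and 153.6 CPM in low R/FR and 124.9 and 127.2 CPM in high R/FR at 90 min (log2 0.39 ± 0.09, adjusted p = 0.000791). At 180 min it read 117.6 and 106.5 CPM in low R/FR and 89.99 and 96.03 CPM in high R/FR (log2 0.27 ± 0.09, fold 1.21, adjusted p = 0.00969). The CESA5 call at 180 min was lost without replicate 2 of high R/FR (log2 0.22, adjusted p = 0.0903), without replicate 1 of low R/FR (log2 0.2, adjusted p = 0.125) and with another library as the TMM reference (log2 0.17, adjusted p = 0.114), and it held in the other alternatives. Both genes were at their hypocotyl high in different groups: CESA2 in low R/FR at 180 min, CESA5 at 0 min in high R/FR.

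KOR1, the endoglucanase of the complex (AT5G49720; chromosome 5, 20197391 to 20200288, minus strand), read 652 and 610 CPM in low R/FR and 500.1 and 500.5 CPM in high R/FR at 90 min (log2 0.33 ± 0.07, adjusted p = 0.000247). At 180 min it read 851 and 805 CPM in low R/FR and 514 and 531 CPM in high R/FR, a log2 change of 0.66 ± 0.07 (fold 1.59, adjusted p = 1.39e-09). COB (AT5G60920; chromosome 5, 24511196 to 24514129, minus strand) read 287.5 and 278.3 CPM in low R/FR and 163.8 and 159.9 CPM in high R/FR at 90 min (log2 0.81 ± 0.08, fold 1.75, adjusted p = 3.42e-09). At 180 min COB read 477.7 and 465.7 CPM in low R/FR and 185.6 and 184 CPM in high R/FR (log2 1.35 ± 0.08, fold 2.55, adjusted p = 2.46e-14). Within each pair of light groups at 90 and 180 min the libraries did not overlap for either gene.

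**Figure D1:**
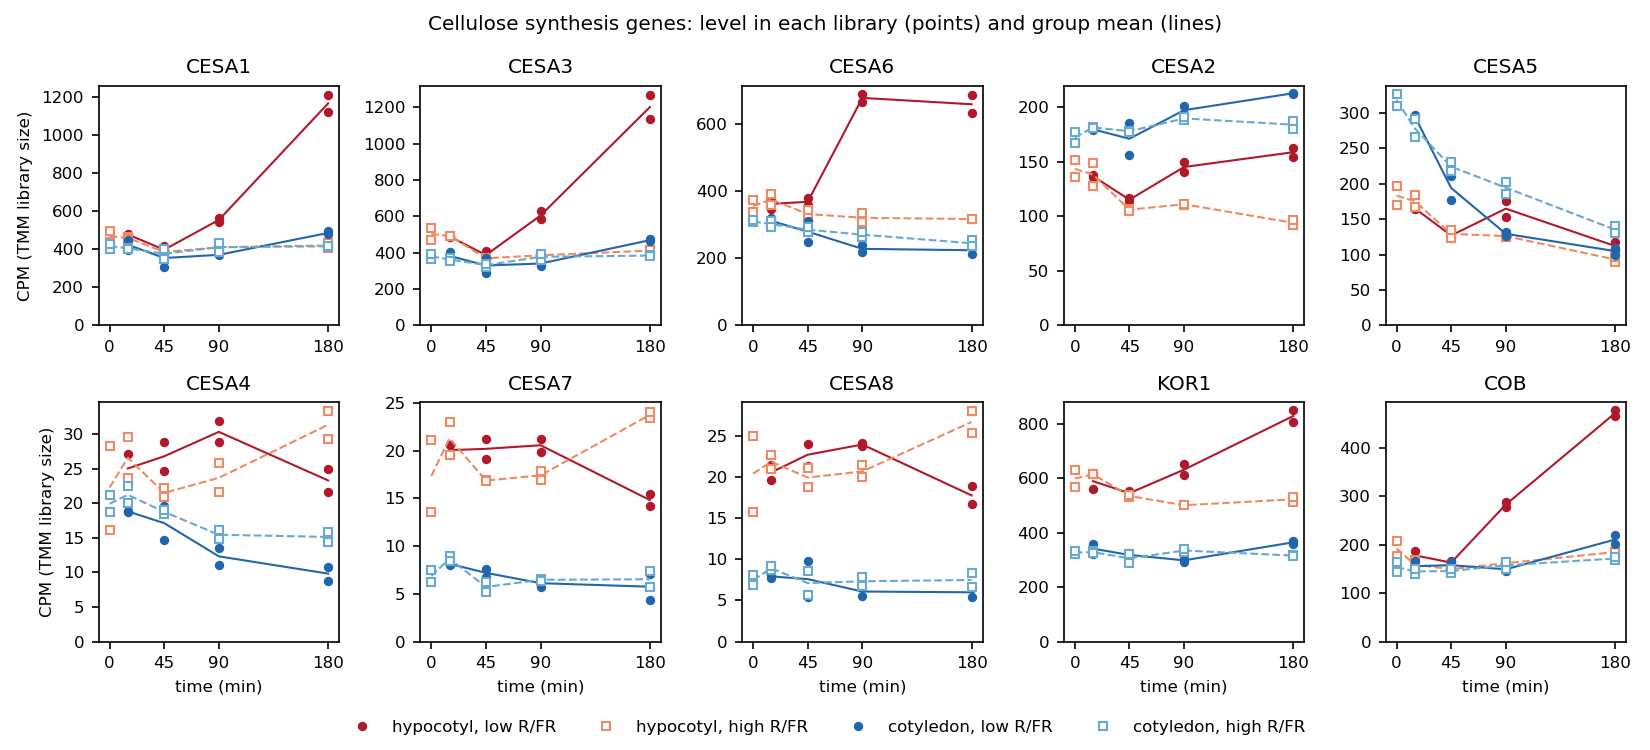
Level of each of the 10 genes in every library (points, CPM with TMM library size, linear axes from 0) and group means (lines) against time in min, for hypocotyl and cotyledon in low and high R/FR. In low R/FR hypocotyls at 180 min CESA1 and CESA3 lie above 1100 CPM, against 406 to 434 CPM in high R/FR, while CESA4, CESA7 and CESA8 lie below their high R/FR libraries.

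The 3 secondary-wall genes went the other way in hypocotyls, with calls at 180 min and none at 90 min. CESA7 (AT5G17420; chromosome 5, 5736630 to 5741465, minus strand), which is needed for the xylem wall together with CESA4 and CESA8, read 14.24 and 15.41 CPM in low R/FR and 23.4 and 24.1 CPM in high R/FR at 180 min. The change was -37.6% (log2 -0.68 ± 0.15, adjusted p = 0.000282). CESA8 (AT4G18780; chromosome 4, 10312624 to 10316790, minus strand) read 16.64 and 18.84 CPM in low R/FR and 25.36 and 27.94 CPM in high R/FR, a change of -33.4% (log2 -0.59 ± 0.18, adjusted p = 0.00774). CESA4 (AT5G44030; chromosome 5, 17714645 to 17719723, plus strand) read 21.62 and 25.01 CPM in low R/FR and 33.42 and 29.33 CPM in high R/FR, a change of -25.8% (log2 -0.43 ± 0.18, adjusted p = 0.041). The light groups did not overlap for any of the 3, and the high R/FR hypocotyls at 180 min had the highest group means of all 9 hypocotyl groups. The CESA7 call held in every alternative run. The CESA8 call was lost without replicate 1 of low R/FR (adjusted p = 0.072) and without replicate 3 of high R/FR (adjusted p = 0.0558). The CESA4 call was lost in 5 alternatives, with adjusted p of 0.0539 with the replicate number as a block, 0.0703 without the low-count filter, 0.119 in the fit of the hypocotyl libraries alone, 0.213 without replicate 2 of high R/FR and 0.223 without replicate 1 of low R/FR.

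The 5 xylem markers were called in neither direction at 180 min in hypocotyl, with log2 changes of -0.46 to -0.21 and a median of -0.31, and summed to 174 and 173 CPM in low R/FR and 228 and 206 CPM in high R/FR. None of them was at 0. Other marker lists moved in the same libraries: the 4 procambium and phloem markers summed to 119 and 129 CPM in low R/FR and 185 and 183 CPM in high R/FR, the 4 shoot apex markers to 152 and 159 CPM in low R/FR and 253 and 251 CPM in high R/FR, and the 4 mesophyll markers to 14100 and 13800 CPM in low R/FR and 21400 and 24300 CPM in high R/FR. The 4 epidermis markers summed to 962 and 913 CPM in low R/FR and 1030 and 899 CPM in high R/FR, which overlap. Of these lists 3 of 4 procambium and phloem, 1 of 2 tested apex and 4 of 4 mesophyll markers were called lower, and 3 of 4 epidermis markers higher and 1 lower. Over all tested genes 32.6% were called lower and 31.2% higher. The part of these marker shifts in the rise of the 7 genes and the fall of the other 3 was not tested. At 90 min the 3 secondary-wall genes had log2 changes of 0.36 ± 0.18 (CESA4), 0.24 ± 0.15 (CESA7) and 0.21 ± 0.18 (CESA8), with adjusted p of 0.126, 0.222 and 0.401.

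The median log2 change of all genes was -0.04 in hypocotyl at 180 min, and -0.14 with another library as the TMM reference, which shifts the hypocotyl changes at that time alike. The 5 primary-wall CESA genes had a median of 1.06 and the 3 secondary-wall genes a median of -0.59. The rise between 45 and 180 min was also tested as a difference of responses in hypocotyl. The response to low R/FR was larger at 180 than at 45 min by 1.43 ± 0.14 for CESA1, 1.47 ± 0.13 for CESA3 and 1.23 ± 0.12 for COB, on the log2 scale. It was lower at 180 than at 45 min by 0.94 for CESA7 (adjusted p = 0.000516), 0.77 for CESA8 (adjusted p = 0.0153) and 0.75 for CESA4 (adjusted p = 0.0172). In all 9 of 10 members were called, with 52.1% of all genes called, 25.5% as higher and 26.6% as lower, and the exception was CESA5 (log2 0.29 ± 0.13, adjusted p = 0.0504). The calls of CESA4 and CESA8 there were lost without replicate 1 of low R/FR at 180 min or replicate 2 of either light at 45 min, that of CESA4 also without replicate 2, and that of CESA8 without replicate 3, of high R/FR at 180 min. The CESA4 call was also lost in the fit of the hypocotyl libraries alone (adjusted p = 0.0672), where CESA5 was called (adjusted p = 0.0429), as it was by limma-voom (adjusted p = 0.0487) and without replicate 3 of low R/FR at 180 min or replicate 2 of high R/FR at 45 min. The 45 and 180 min responses share no libraries.

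**Figure D2:**
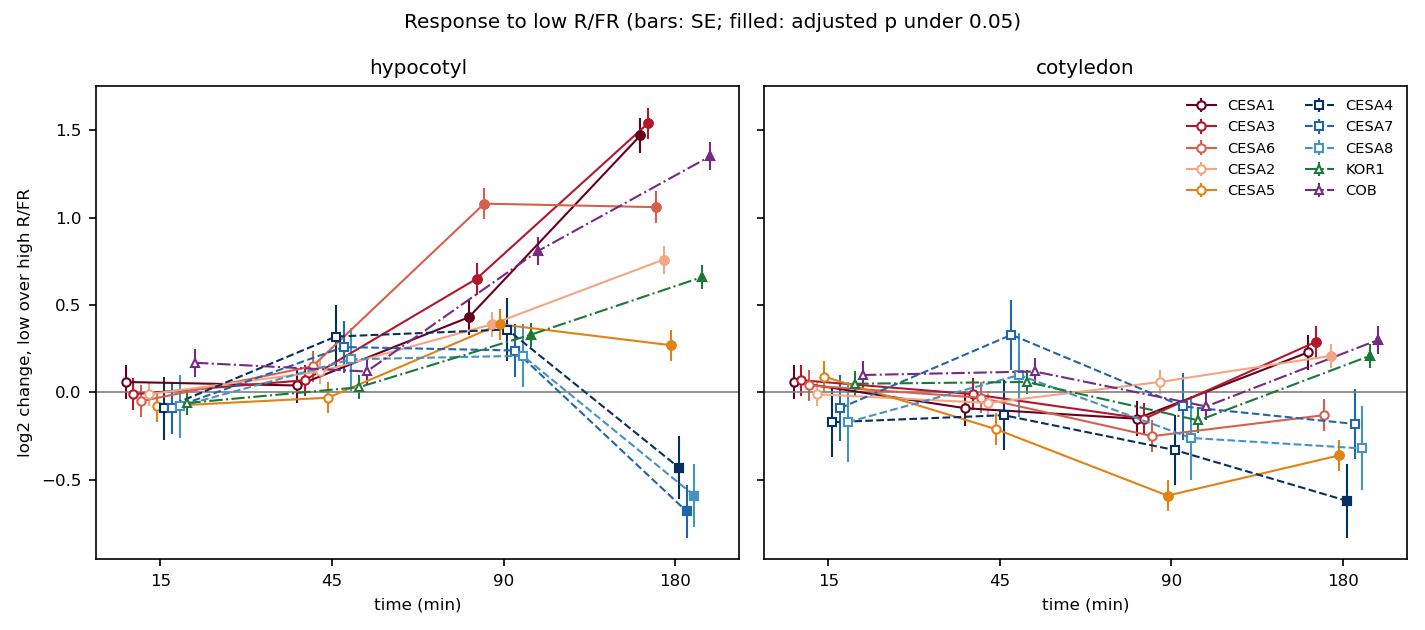
Log2 change of each gene in low over high R/FR against time (15, 45, 90 and 180 min, evenly spaced), with SE bars and filled points where the adjusted p is under 0.05, in hypocotyl and cotyledon. CESA6 stands at 1.08 and 1.06 at 90 and 180 min in hypocotyl while CESA1 and CESA3 climb to 1.47 and 1.54, the 3 secondary-wall genes end below 0, and CESA5 falls to -0.59 at 90 min in cotyledon.

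These unequal responses changed the make-up of the primary-wall CESA messages. In low R/FR hypocotyls at 180 min CESA1 and CESA3 made up 34% and 38.6% of the summed CPM per kb of the 5 genes, against 30.4% and 32.8% in high R/FR. CESA6 made up 19.5% in low R/FR and 23.2% in high R/FR, CESA2 4.61% in low R/FR and 6.76% in high R/FR, and CESA5 3.33% in low R/FR and 6.86% in high R/FR. The sum itself was 850 and 775 CPM per kb in low R/FR and 329 and 327 CPM per kb in high R/FR. The sum over CESA4, CESA7 and CESA8 was 14.9 and 16.8 CPM per kb in low R/FR and 23.3 and 23.2 CPM per kb in high R/FR. There were thus 1.75 and 2.17 units of secondary-wall message per 100 units of primary-wall message in low R/FR and 7.09 and 7.1 in high R/FR, and the 2 low R/FR libraries held the lowest ratios of all 18 hypocotyl libraries. In cotyledons at 180 min the same ratio was 1.42 and 1.9 in low R/FR and 2.63 and 2.26 in high R/FR. These ratios are levels of messages and not amounts of protein or cellulose.

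**Figure D3:**
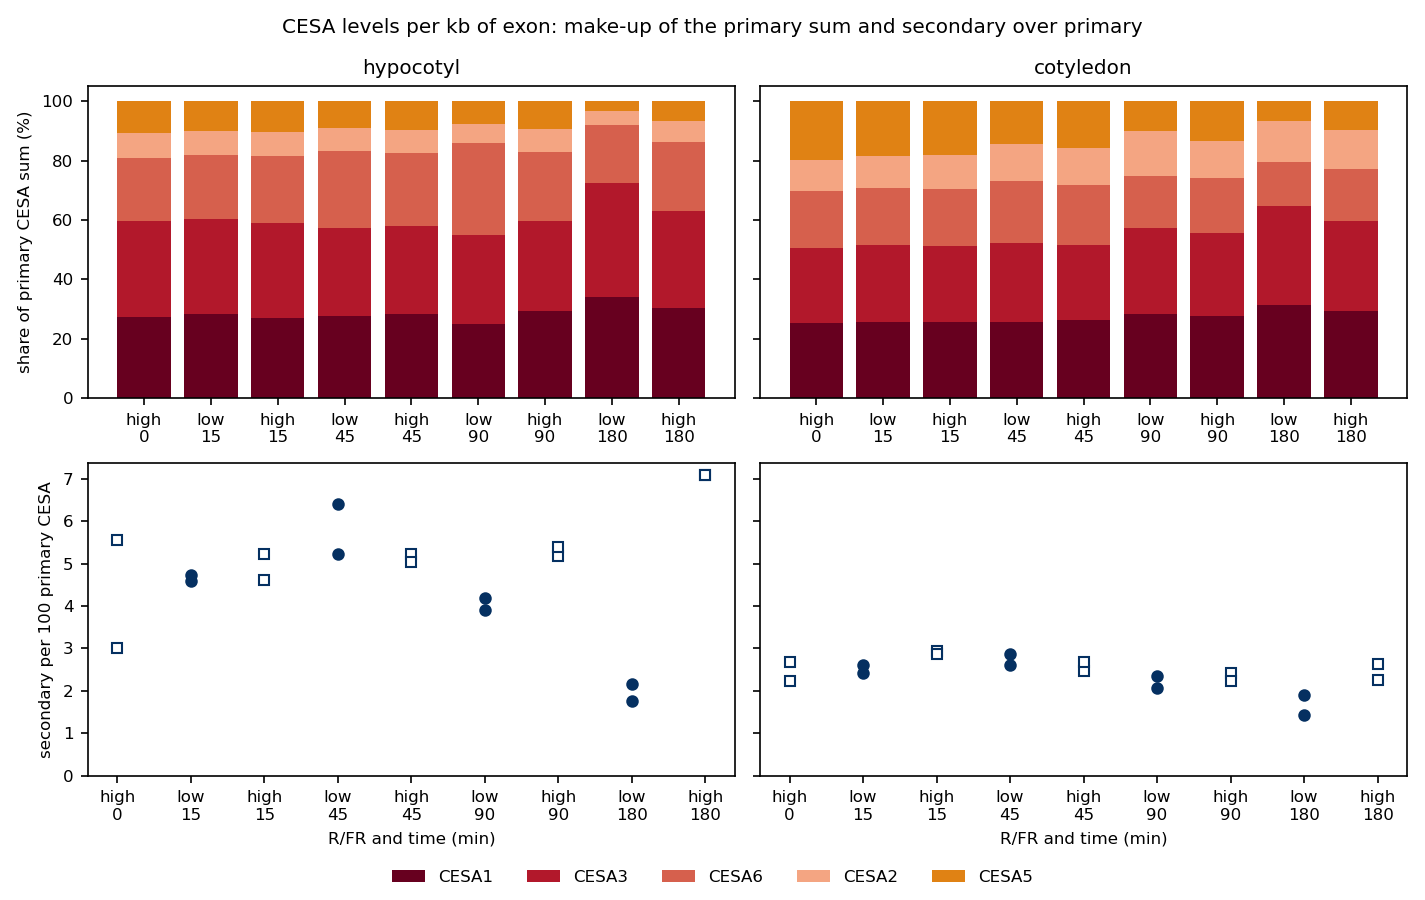
Top, share of each primary-wall CESA gene in their summed CPM per kb of exon (%, group means, stacked to 100) for each light and time in min; bottom, summed secondary-wall CESA level per 100 units of summed primary-wall CESA level, 1 point a library (filled low R/FR, open high R/FR). In hypocotyl at 180 min the ratio is 1.75 and 2.17 in low R/FR and 7.09 and 7.1 in high R/FR, and in cotyledon the CESA5 share shrinks with time in both light conditions.

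In cotyledons CESA5 was lower in low R/FR at 90 and 180 min, and CESA4 at 180 min. At 90 min CESA5 read 131.8 and 126.7 CPM in low R/FR cotyledons and 185.8 and 202.8 CPM in high R/FR, a change of -33.5% (log2 -0.59 ± 0.09, adjusted p = 1.24e-05). It was the 1 of 10 members called at that time (without the low-count filter CESA6, at log2 -0.25, was called as well), when 10.8% of all genes were called and 6.35% were called lower. Its light groups did not overlap, and the call held without each of the 4 libraries in turn. At 180 min CESA5 read 109.8 and 99.97 CPM in low R/FR and 140.1 and 130 CPM in high R/FR (log2 -0.36 ± 0.09, adjusted p = 0.00358). CESA5 lost this call without replicate 1 of high R/FR (log2 -0.31) and without replicate 2 of low R/FR (log2 -0.3). At 45 min its log2 change was -0.21 ± 0.09, with an unadjusted p of 0.0266 and no call.

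At 180 min 4 members were called higher and 2 lower in low R/FR cotyledons, when 19.5% of all genes were called, 8.02% higher and 11.5% lower. COB read 201.2 and 220.2 CPM in low R/FR and 168.7 and 174.6 CPM in high R/FR (log2 0.30 ± 0.08, adjusted p = 0.0116). CESA3 read 473.1 and 464.5 CPM in low R/FR and 387.8 and 380.9 CPM in high R/FR (log2 0.29 ± 0.09, adjusted p = 0.0225). KOR1 (log2 0.21 ± 0.07, adjusted p = 0.0343) and CESA2 (log2 0.21 ± 0.07, adjusted p = 0.0466) were the other 2 higher genes. The CESA1 libraries were also apart, at 478 and 494 CPM in low R/FR and 412 and 419 CPM in high R/FR, but the change was not called (log2 0.23 ± 0.1, adjusted p = 0.101).

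CESA4 read 8.824 and 10.84 CPM in low R/FR cotyledons and 15.9 and 14.38 CPM in high R/FR at 180 min (log2 -0.62 ± 0.21, adjusted p = 0.0429). CESA7 (log2 -0.18, adjusted p = 0.59) and CESA8 (log2 -0.32, adjusted p = 0.415) were not called on levels of 4.37 to 8.368 CPM, where the lowest CESA7 library held 105 counts. The 5 xylem markers were not called either, with a median log2 change of -0.26, and summed to 87 and 106 CPM in low R/FR and 118 and 110 CPM in high R/FR, while the 4 procambium and phloem markers summed to 168 and 170 CPM in low R/FR and 225 and 207 CPM in high R/FR, and the 4 epidermis markers to 733 and 813 CPM in low R/FR and 972 and 1060 CPM in high R/FR. Their part in the cotyledon values was not tested. The CESA4 call was lost in 6 of the alternatives that kept all libraries (adjusted p 0.0506 to 0.0828) and without each of the 4 single libraries. In place of the 6 cotyledon calls at 180 min there were 3 without the low-count filter, 0 without replicate 2 of low R/FR or replicate 1 of high R/FR, and 2 without either other library. At 15 min 0 of 10 members were called by edgeR in cotyledon, with 0.219% of all genes called and 0 members at an unadjusted p under 0.05. At 45 min 0 of 10 were called, with 3.62% of all genes called and 1 member, CESA5, at an unadjusted p under 0.05. DESeq2 and limma-voom called 0 at both times.

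The hypocotyl and cotyledon responses to low R/FR were compared directly, by the difference of their log2 changes. At 90 min 7 of 10 members responded more in the positive direction in hypocotyl than in cotyledon, when 21.4% of all genes were called and 12.2% in that direction. The difference was widest for CESA6, at 1.32 ± 0.12 (adjusted p = 7.87e-10), and for CESA5, at 0.97 ± 0.13 (adjusted p = 4.54e-07), a gene higher in low R/FR hypocotyls and lower in low R/FR cotyledons. COB differed by 0.88 ± 0.12, CESA3 by 0.80 ± 0.13, CESA1 by 0.58 ± 0.13, KOR1 by 0.50 ± 0.1 and CESA2 by 0.33 ± 0.11, with adjusted p of at most 0.0227. The CESA2 call was lost with library totals in place of TMM (0.26, adjusted p = 0.121), with another TMM reference library (0.27, adjusted p = 0.0796) and without 5 of the 8 libraries in turn: replicate 1 of low R/FR and both replicates of high R/FR in hypocotyl, and replicate 2 of low and of high R/FR in cotyledon (adjusted p 0.0526 to 0.105).

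At 180 min the same 7 genes were called, when 46.5% of all genes were called and 23.7% in that direction. CESA3 differed by 1.26 ± 0.13, CESA1 by 1.25 ± 0.14, CESA6 by 1.18 ± 0.12 and COB by 1.06 ± 0.12. CESA5, CESA2 and KOR1 differed by 0.63, 0.55 and 0.46. For the secondary-wall genes no difference between the organs' responses was called at 180 min. The difference was 0.19 for CESA4 (approximate 95% interval -0.35 to 0.74), -0.50 for CESA7 (-0.98 to -0.01, adjusted p = 0.106) and -0.27 for CESA8 (-0.86 to 0.33). Differences up to about those bounds were not resolved. The intervals use a normal approximation and are narrower than the edgeR test implies. That of CESA7 excludes 0, yet its unadjusted p was not under 0.05. The CESA7 difference was called with another TMM reference library (-0.63, adjusted p = 0.0387) and without replicate 1 of the low R/FR cotyledons (-0.81, adjusted p = 0.00883), and it ran from -0.81 to -0.11 over the alternatives, with -0.11 without replicate 2 of the low R/FR cotyledons. At 15 min 0.0149% of all genes were called and at 45 min 0.696%. At both times edgeR called 0 members, 0 had an unadjusted p under 0.05, and DESeq2 and limma-voom called 0. In cotyledon alone the response at 180 min less that at 45 min gave 0 members called by edgeR, with 7.66% of all genes called, 3 members at an unadjusted p under 0.05, and 0 by DESeq2 and limma-voom.

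CESA5 also fell over the morning in seedlings whose light was not changed. In high R/FR cotyledons CESA5 read 325.8 and 310 CPM at 0 min, 290.6 and 265.3 at 15 min, 217.5 and 230.2 at 45 min, 185.8 and 202.8 at 90 min and 140.1 and 130 CPM at 180 min. At 180 min against 0 min the log2 change was -1.23 ± 0.09 (adjusted p = 1.14e-12). In high R/FR hypocotyls it read 89.99 and 96.03 CPM at 180 min and 170 and 196.2 CPM at 0 min, a log2 change of -0.98 ± 0.09. The level that low R/FR was set against at 90 and 180 min was thus itself falling with time in both organs.

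In cotyledon 2 of 10 members were called over that time in high R/FR, both lower at 180 than at 0 min, when 55.6% of all genes were called and 23.5% as lower. The other was CESA6, at 254.3 and 236.1 CPM at 180 min and 307.2 and 313.2 CPM at 0 min (log2 -0.34 ± 0.09, adjusted p = 0.00135). The median of all genes was 0.109 there and 0.03 with library totals in place of TMM.

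In hypocotyl 2 members were called higher and 4 lower at 180 than at 0 min, when 44.9% of all genes were called, 22% as higher and 22.9% as lower. CESA2 was lower at 180 than at 0 min, at 91.86 and 96.41 CPM at 180 min and 136.1 and 151.4 CPM at 0 min (log2 -0.61 ± 0.08). CESA3 (-0.29 ± 0.09) and KOR1 (-0.20 ± 0.07) were lower too, but by little, and lost their calls with library totals in place of TMM, and KOR1 also without the low-count filter (adjusted p = 0.0598). CESA4 (0.50 ± 0.18, adjusted p = 0.0282) and CESA7 (0.46 ± 0.15, adjusted p = 0.014) were higher at 180 min. The CESA4 call was lost without the low-count filter (adjusted p = 0.0536) and in the fit of the hypocotyl libraries alone (adjusted p = 0.0819). The 0 min libraries differed: at 0 min replicate 2 read 16.2 CPM for CESA4 and 13.54 for CESA7, while replicate 1 read 28.35 and 21.14 CPM, close to the 180 min levels. The xylem markers of those 0 min libraries summed to 133 CPM in replicate 2 and 225 CPM in replicate 1, and their part in the difference was not tested. The count of members called was 2 to 7 when 1 library was left out, with 2 called without replicate 2 at 0 min and 3 without replicate 2 at 180 min. The change from 0 to 180 min differed between the organs for CESA2 (hypocotyl minus cotyledon -0.71 ± 0.11, adjusted p = 5.73e-06) and CESA4 (0.90 ± 0.27, adjusted p = 0.0125), 2 of 10 members when 34% of all genes were called, 14.2% as higher and 19.9% as lower. The CESA4 difference was lost without replicate 2 of hypocotyl at 180 min (0.8) or 0 min (0.55), and without replicate 2 at 180 min (0.83) or replicate 1 at 0 min (0.8) of cotyledon.

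The order of levels, as CPM per kb in high R/FR, was much the same in both organs. In hypocotyl KOR1 stood highest at 218 ± 19.3 (SD, n = 10), followed by CESA3 at 113 ± 15.8, CESA1 at 102 ± 8.91, CESA6 at 81.6 ± 6.55 and COB at 73.4 ± 8.31. CESA5 at 34.1 ± 8.74 and CESA2 at 28 ± 4.98 came next, and CESA4 at 6.65 ± 1.36, CESA8 at 6.54 ± 1.05 and CESA7 at 5.68 ± 1.03 last. The neighbours CESA3 and CESA1, CESA6 and COB, CESA5 and CESA2, and the 3 secondary-wall genes lay within 1 SD of each other. In cotyledon KOR1 stood at 127 ± 5.58, CESA3 and CESA1 both at 96.0 (SD 5.98 and 5.55), CESA6 at 67.8 ± 6.14 and COB at 67 ± 5.32. CESA5 followed at 55.5 ± 16.4, CESA2 at 42.7 ± 1.62, CESA4 at 4.80 ± 0.724, CESA8 at 2.29 ± 0.332 and CESA7 at 2.01 ± 0.349. Each SD spans 5 times and so holds change over the morning as well as replicate spread.

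CESA8, CESA7 and KOR1 had the largest differences between the organs with TMM scaling. In high R/FR CESA8 was 2.82-fold (log2 1.5 ± 0.1) and CESA7 2.78-fold (log2 1.48 ± 0.09) higher in hypocotyl than in cotyledon, CESA4 had a log2 difference of 0.45 ± 0.12, and KOR1 was 1.69-fold higher (log2 0.76 ± 0.04). Over all 18 libraries of each organ, low R/FR included, CESA4 made up on average 36% of the summed CPM per kb of the 3 secondary-wall genes in hypocotyl and 50.7% in cotyledon. With TMM scaling 7 members were called higher and 2 lower in hypocotyl, when 80.6% of 18754 genes were called, 40.8% as higher and 39.8% as lower. COB (log2 0.11), among the 7, lost its call with the plate shared by both organs as a block (0.1, adjusted p = 0.0628) and without replicate 1 of cotyledon at 0 min, replicate 2 of hypocotyl at 0 min or replicate 1 of hypocotyl at 15 min (adjusted p 0.0597 to 0.0659).

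The 2 lower ones, CESA2 (log2 -0.65 ± 0.06) and CESA5 (log2 -0.70 ± 0.05), depended on the scaling: with library totals in place of TMM they stood at -0.01 and -0.07 and were not called, and the median of all genes moved from 0.01 to 0.64. CESA1, at 0.06 ± 0.04 with TMM, stood at 0.69 with library totals and was called. In the low R/FR libraries 8 members were called higher and 1 lower, when 64.3% of 18700 genes were called, 35% as higher and 29.3% as lower. There CESA2 stood at -0.46 with TMM but at 0.13 with library totals, and CESA5 at -0.25 with TMM but at 0.34 with library totals, while CESA7 (1.48), CESA8 (1.62) and KOR1 (0.96) stayed higher in hypocotyl under both scalings. Each organ difference is an average over the times of its light. In low R/FR the CESA5 group means were 165 CPM in hypocotyl and 295 CPM in cotyledon at 15 min, and 127 and 194 CPM at 45 min. At 90 min they were 165 and 129 CPM, and at 180 min 112 and 105 CPM. Relative to the other members, CESA2 and CESA5 were the most cotyledon-weighted on these averages. Library totals in place of TMM shifted all genes nearly alike, so they could not alter that order, and they raised CESA7, CESA8 and KOR1 further. The mesophyll markers moved with the organ as given above, and their part in these differences was not tested.

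**Figure D4:**
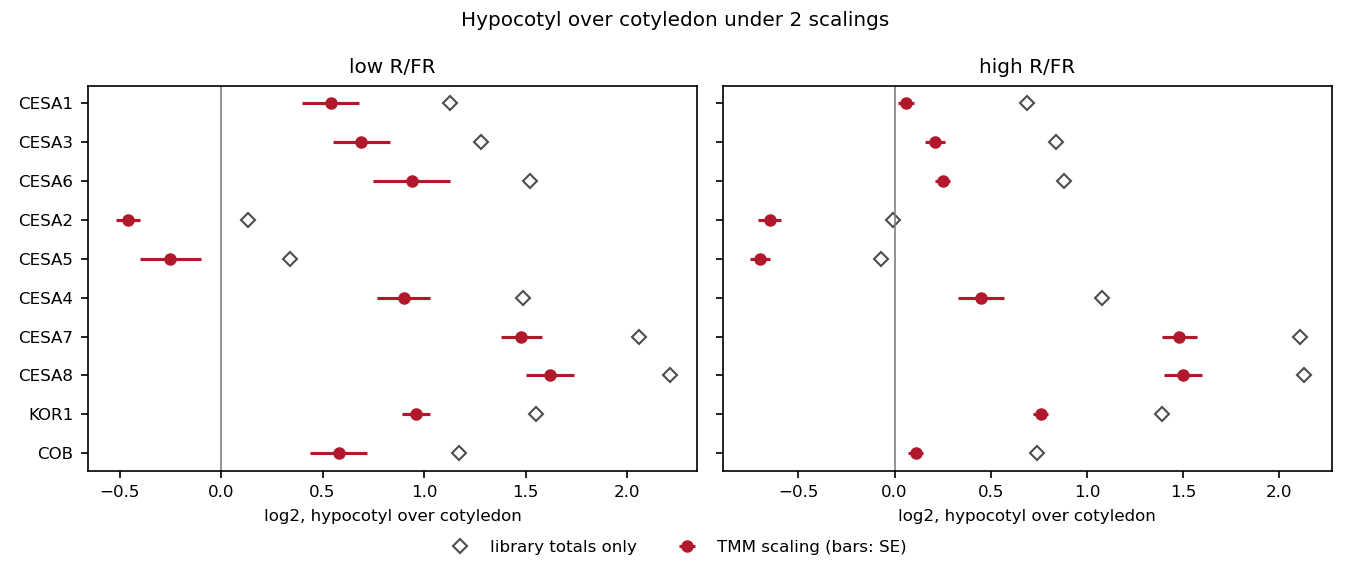
Log2 difference of hypocotyl over cotyledon, averaged over the times, for each gene in high R/FR (20 libraries) and low R/FR (16 libraries), with TMM scaling (circles, SE bars) and with library totals only (diamonds). Library totals shift every gene to the right by a like amount, which brings CESA2 and CESA5 to -0.01 and -0.07 in high R/FR and to 0.13 and 0.34 in low R/FR, while CESA7, CESA8 and KOR1 stay above 0 under both.

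Other genes of cellulose synthesis and the wall were read from lists, whose counts stand against the shares over all genes. In low R/FR hypocotyls these were 31.2% called higher and 32.6% lower at 180 min, and 19.1% higher at 90 min, and in cotyledons 8.02% higher and 11.5% lower at 180 min. Of 12 listed partners of the complex 9 passed the filter on low counts, and at 180 min in low R/FR 7 of the 9 rose and 2 fell, with a median log2 change of 0.81. CSI1, which links the complex to microtubules, read 420 and 396 CPM in low R/FR hypocotyls and 174 and 187 CPM in high R/FR (log2 1.18 ± 0.11). The loci AT1G45688 (1.63 ± 0.07) and AT2G41770 (1.13 ± 0.09) and KOB1, needed for cellulose in expanding cells (0.81 ± 0.08), rose as well. The 2 that fell were CSI3, a relative of CSI1 (-0.45 ± 0.12), and CTL2, a chitinase-like protein of secondary walls (-0.45 ± 0.17). At 90 min 3 of the 9 had risen and 0 had fallen. In cotyledon at 180 min CTL1 was the 1 partner called (0.23 ± 0.08).

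Xyloglucan, the hemicellulose that coats primary-wall cellulose, was the list with the largest median of the 13 lists beside the members. All 6 of its listed synthesis genes rose in low R/FR hypocotyls at 180 min, against 31.2% of all genes called higher, with a median log2 change of 1.52. The xylosyltransferase XXT1 read 88.58 and 96.57 CPM in low R/FR and 17.32 and 17.59 CPM in high R/FR (2.41 ± 0.15). The glucan synthase CSLC4 rose by 1.83, the xylosyltransferases XXT5 by 1.83 ± 0.08 and XXT2 by 0.97 ± 0.07, the galactosyltransferase MUR3 by 1.21 ± 0.09 and the fucosyltransferase FUT1 by 0.34. In cotyledon at 180 min 4 of the 6 rose, with a median of 0.38 and 8.02% of all genes called higher, among them MUR3 (0.54), XXT2 (0.41), FUT1 (0.41) and XXT5 (0.33). The hypocotyl response exceeded the cotyledon response for 5 of the 6, when 23.7% of all genes were called in that direction.

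COBRA-like genes were split. Of 6 tested among 10 listed, 3 rose and 2 fell in low R/FR hypocotyls at 180 min, when 63.8% of all genes were called: COBL7 (1.59 ± 0.09), COBL2 (0.81 ± 0.15) and COBL5 (0.65 ± 0.21) rose, while COBL8 (-0.88) and COBL4, a gene of secondary walls (-0.71 ± 0.18), fell. Of 8 genes for the supply of UDP-glucose, the substrate of the CESA proteins, UGP1 (1.06 ± 0.07), SUS3 (0.89 ± 0.18) and SUS1 (0.51 ± 0.21) rose, SUS6 fell by 0.85, and the median was -0.1. In cotyledon UGP1 rose by 0.19 and UGP2 fell by 0.26. Among 4 further CESA and KOR genes, 3 were tested, and KOR2 was called in hypocotyl on 27 and 13 counts in low R/FR and 11 and 1 counts in high R/FR. KOR3 was called in cotyledon on 3 and 6 counts in low R/FR and 0 and 0 counts in high R/FR, too few for a fold.

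Secondary-wall genes beside CESA4, CESA7 and CESA8 were in part lower in low R/FR hypocotyls at 180 min, when 32.6% of all genes were called lower and 31.2% higher. Of 17 listed regulators 14 were tested, and in low R/FR hypocotyls at 180 min 7 fell and 0 rose, with a median log2 change of -0.62. KNAT7, a homeodomain regulator of secondary walls, read 3.72 and 4.5 CPM in low R/FR and 10.13 and 9.42 CPM in high R/FR (-1.25 ± 0.15). The vessel NAC factors VND6 (-1.21 ± 0.25) and VND4 (-0.76 ± 0.18) fell, as did VNI2, a NAC repressor of vessel genes (-0.67 ± 0.1). Of 13 xylan and lignin genes 7 fell and 2 rose, with a median of -0.39. The xylan genes FRA8 (-1.56 ± 0.15) and IRX15L (-0.85 ± 0.24) fell, and IRX14 (0.59 ± 0.08) and PARVUS (0.81 ± 0.16), also of xylan synthesis, rose. In cotyledon at 180 min VNI2 was the 1 regulator that fell (-1.22 ± 0.1) and PARVUS the 1 xylan gene (-0.58 ± 0.19). In high R/FR 12 of 13 tested regulators were higher in hypocotyl than in cotyledon (median 1.08, with 80.6% of all genes called and 40.8% higher, and with VND3 at 3.05 ± 0.11 and KNAT7 at 2.7 ± 0.11), and 13 of 13 xylan and lignin genes (median 0.97, with FRA8 at 4.77 ± 0.12). The fall in hypocotyl went with xylem marker sums of 174 and 173 CPM in low R/FR and 228 and 206 CPM in high R/FR, as given above for the CESA genes.

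**Figure D5:**
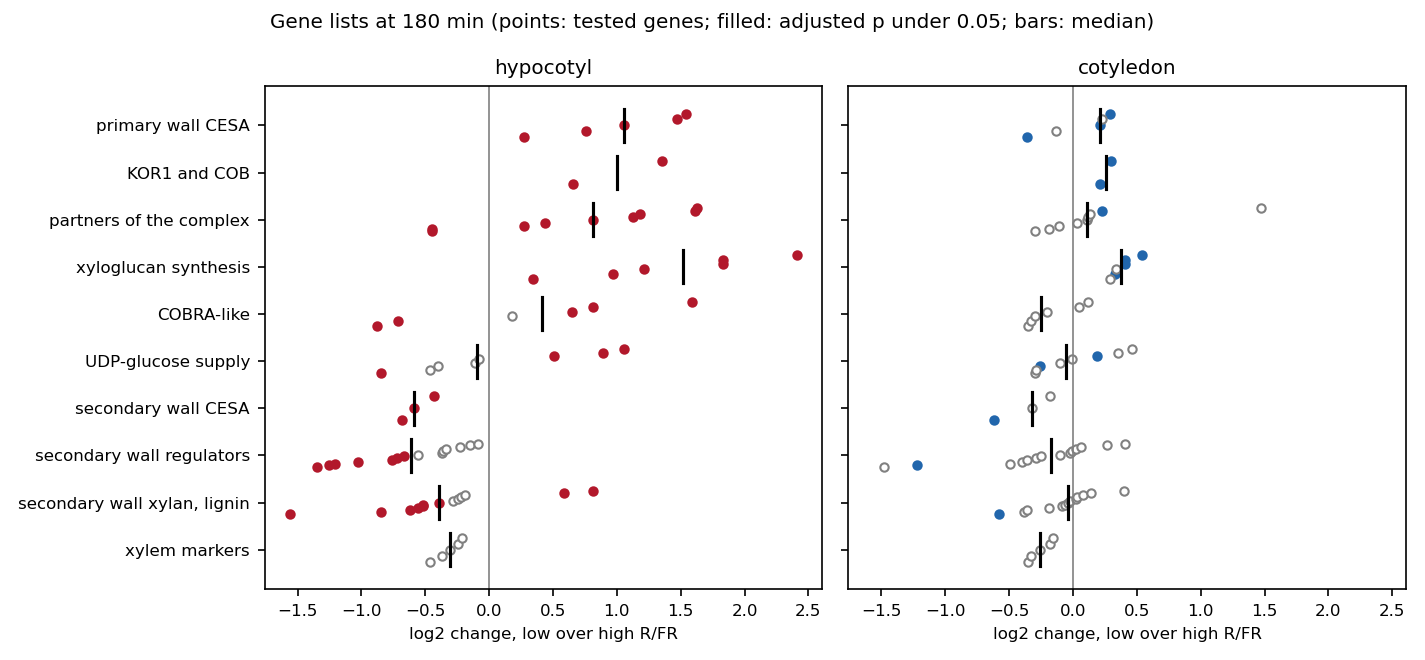
Log2 change in low over high R/FR at 180 min of each tested gene of 10 lists (points, filled where the adjusted p is under 0.05) with the list's median (bar), in hypocotyl and cotyledon. In hypocotyl the medians are 1.06 for primary-wall CESA, 1.52 for xyloglucan synthesis, -0.59 for secondary-wall CESA, -0.62 for secondary-wall regulators and -0.31 for xylem markers, and in cotyledon the points lie closer to 0.

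The pattern over groups was described by Pearson correlation of mean log2 CPM over the 9 groups of an organ, among 15705 genes. The points share 36 libraries and the same light and time course, so the values are descriptions. In hypocotyl CESA1 and CESA3 correlated at 0.990, which ranked CESA3 as number 4 of all genes, and CESA1 correlated at 0.956 with COB, 0.95 with KOR1, 0.802 with CESA6, 0.696 with CESA2, -0.131 with CESA5 and -0.53 with CESA7. The 5 genes most like CESA1 in hypocotyl were QUA1, a glycosyltransferase of pectin synthesis (0.996), CESA3 and 3 other loci at 0.990 to 0.994. CESA7 was most like AT5G60720 (0.938), CESA8 (0.920), MAP65-8, of a family that bundles microtubules (0.917), emb1473 (0.917) and UXS6, a UDP-xylose synthase (0.915), and CESA4 stood at 0.843. In cotyledon CESA1 and CESA3 correlated at 0.979 (number 2 of all genes), and CESA7 and CESA8 at 0.865 (number 4). The vessel regulator VND4 was number 2 for CESA7 there, at 0.916. CESA5 in cotyledon ran with CESA6 (0.987) and not with the CESA1 and CESA3 pair.

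The authors' deposited tables gave 80 values of low over high R/FR for these genes, 10 in each organ at each time. In the authors' deposited tables and in the fits here 18 were called by both, 0 by the tables alone and 6 here alone, and no log2 change differed by more than 0.04. The 6 were CESA2 (authors' adjusted p of 0.101 in the deposited table), CESA3 (0.0772), CESA4 (0.0653) and KOR1 (0.0595) in cotyledon at 180 min, and CESA4 (0.149) and CESA8 (0.0794) in hypocotyl at 180 min.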

How the data were processed

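The deposited table holds raw counts of reads per gene, and 5 summary lines that name no gene were left out. The submitters' processing notes name build TAIR10 and, with no role given, HTSeq 0.5.4p3, TopHat2 2.0.9 with Bowtie, limma 3.18.2, cutadapt 1.2.1 and edgeR 3.4.0, and per the labels the libraries were stranded. HTSeq writes a line for reads that align in several places, so reads shared by close relatives such as CESA2, CESA5 and CESA6 may be missing from their counts. That line held 7.24 to 20.21 reads per 100 counted ones, but 39 in replicate 2 of high R/FR hypocotyls at 15 min. The same library had the highest share of reads in no gene (2.89%), and its group the largest spread between replicates (chi-square per degree of freedom 20.82). The authors' deposited tables of comparisons, per the file headers, hold log2 fold changes and log2 group means, p-values and adjusted p-values, and a t statistic and signed fold as a score; gene positions were taken from them, and promoter sequence from RefSeq (TAIR10.1).

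Counts were analysed in R 4.3.3 with edgeR 4.0.16: genes were kept by filterByExpr (minimum count 10, minimum total 15), library sizes scaled by TMM, and 1 mean was fitted for each of 18 groups over 36 libraries (18 residual degrees of freedom, common biological coefficient of variation 0.0763), with the robust quasi-likelihood test and Benjamini-Hochberg adjustment over 20126 genes at 0.05. The SE of a log2 change is its size over the root of its F statistic. Hypocotyl was set against cotyledon within each light, with time as a term. The 19 comparisons share libraries: low and high R/FR groups of a time enter the light, organ and time comparisons together. Levels per kb use the exon length from RefSeq. The spread between replicates of a group exceeded counting error in all 18 groups (chi-square per degree of freedom 3.755 to 20.82), so no library was a copy. DESeq2 1.42.0, limma-voom (limma 3.58.1), RLE scaling, no filter, an organ's own libraries, replicate blocks, leaving out each library and, added after seeing the data, library totals without TMM, another TMM reference library and blocks by plate were the alternatives. Fits that leave out a library keep the tested genes and, unless it is the one left out, the TMM reference library. The scripts were tested on simulated data.

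The deviations of same-numbered low and high R/FR libraries had correlations of -0.165 to 0.073 (13 pairs). Pairs of the same organ and time gave the same value, so these values are not all independent. The range overlaps that of libraries from the same plate, 0.054 to 0.14. The check therefore cannot decide whether same-numbered low and high R/FR libraries share more than a number. Hypocotyl and cotyledon libraries of one number came from the same plate per the labels (16 pairs, correlations 0.054 to 0.14).

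The members and lists were chosen with earlier results of these data known. All 10 members are named, from each other list up to 4 called genes with the smallest p in hypocotyl at 180 min, in cotyledon at 180 min and between organs in high R/FR, and the 5 genes most like CESA1 and CESA7; EXPB3, COBL8, SUS1, FUT1 and CSLC4 and the counts of KOR2 and KOR3 complete small counts, and were chosen after their values were seen.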

Additional observations from a re-analysis of the deposited data

Results flagged for a closer look

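The response to low R/FR differed between hypocotyl and cotyledon by a direct test for 7 of the 10 genes at 90 min and for the same 7 at 180 min. As hypocotyl minus cotyledon on the log2 scale, the differences at 90 min were 1.32 for CESA6, 0.97 for CESA5, 0.88 for COB, 0.8 for CESA3, 0.58 for CESA1, 0.5 for KOR1 and 0.33 for CESA2. At 180 min they were 1.26 for CESA3, 1.25 for CESA1, 1.18 for CESA6, 1.06 for COB, 0.63 for CESA5, 0.55 for CESA2 and 0.46 for KOR1. At both times CESA5 was the member whose low R/FR change had opposite signs in the organs with a call in each, higher in low R/FR hypocotyls and lower in low R/FR cotyledons. Its 180 min calls were less firm than those at 90 min: in each organ the 180 min call was lost in some alternatives, as given above.

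The change from 0 to 180 min in high R/FR also differed between the organs, for CESA2 by -0.71 and for CESA4 by 0.9 as hypocotyl minus cotyledon. The CESA4 value rests in part on the 0 min hypocotyls, whose replicate 2 read 16.2 CPM and whose replicate 1 read 28.35 CPM. Groups held 2 libraries, too few for a check of single libraries against their group.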

How the results depend on the processing

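The number of members called stayed within 1.5 times the main count under every alternative that kept all libraries, with 3 exceptions. Without the low-count filter 2 members were called at 90 min (against 1) and 3 at 180 min (against 6) in cotyledon, and the difference between organs in the change from 0 to 180 min in high R/FR gave 4 members with library totals in place of TMM, against 2. Library totals also reversed CESA2 (0.13) and CESA5 (0.34) between hypocotyl and cotyledon in low R/FR. The replicate number as a block gave 0, 0, 1 and 5 members at 15, 45, 90 and 180 min in cotyledon and 0, 0, 7 and 9 in hypocotyl. For the difference of the organs' responses it gave 0, 0, 7 and 7, and a block by plate the same. For 180 min less 45 min the number block gave 0 members in cotyledon and 9 in hypocotyl, and for 180 against 0 min in high R/FR 2 in cotyledon and 6 in hypocotyl. Between the organs' changes over that time it gave 2 members, and 3 with the plate block. Between organs the plate block gave 8 members in high and 9 in low R/FR. The number block lost CESA4 at 180 min in both organs, the plate block COB between organs in high R/FR, and they changed no other call but CESA7, gained in the organs' change from 0 to 180 min. Leaving out each library in turn gave 0 to 0 members at 15 min, 0 to 2 at 45 min (2 without replicate 1 of low R/FR), 1 to 1 at 90 min and 0 to 2 at 180 min in cotyledon. In hypocotyl it gave 0 to 0, 0 to 0, 7 to 7 and 7 to 10 (7 without replicate 1 of low R/FR), and for the difference of responses 0 to 0, 0 to 0, 6 to 7 and 7 to 8. For 180 less 45 min it gave 0 to 3 in cotyledon (3 without replicate 1 of low R/FR at 45 min) and 7 to 10 in hypocotyl. For 180 against 0 min it gave 2 to 3 in cotyledon, 2 to 7 in hypocotyl and 1 to 5 for their difference (1 without replicate 2 of either organ at 180 min or replicate 1 of cotyledon at 0 min, 5 without replicate 1 of hypocotyl at 0 min), and between organs 8 to 10 in high and 9 to 9 in low R/FR. A group left with 1 library is assumed to vary like the others, and the causes were not tested. Over all genes, the calls at 15 min numbered 44 in cotyledon, but 67 with DESeq2 and 70 with the number block, and 36 in hypocotyl, but 94 with DESeq2 and 14 with the hypocotyl libraries alone. For the difference of responses 3 genes were called at 15 min, but 1 with limma-voom and 9 with the plate block, and 140 at 45 min, but 237 with the plate block. Counts of CESA7 and CESA8 were low in cotyledon, where the lowest library held 105 counts of CESA7, and the part of depth in their results was not tested.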
